A study of Homo sapiens with 12 samples.

Results

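The 10 listed genes of the melanocyte lineage were followed in the established human melanoma line SK-mel147 after RNA interference against the histone variant H2A.Z. They comprised the transcription factors MITF, SOX10, SOX9 and PAX3, the endothelin receptor gene EDNRB, and the pigment cell genes PMEL, MLANA, TYR, TYRP1 and DCT. The list names known lineage genes, and the rule behind it uses no measured difference. The list was chosen, however, with earlier results of these data known. Each gene was read from the brightest probe set that names it alone, and 9 of the 10 genes were measured among 18417 genes in all. DCT was not analysed here.

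Messenger RNA had been measured on 12 Affymetrix Human Gene 1.0 ST arrays. The study asked, by its title, how H2A.Z bears on melanoma growth and on the response to drugs. Cells infected with lentiviral short hairpin RNAs fell into 6 groups of 2 arrays. Hairpins sh_37 and sh_38 were aimed at H2AZ2, the gene of H2A.Z.2. Hairpins sh_83 and sh_84 were aimed at H2AZ1, the gene of H2A.Z.1. The scrambled and luciferase hairpins were the controls, so each of the 3 targets had 4 arrays. All groups were the same cell line, and all carried a lentiviral hairpin. Titles speak of siRNA, while the treatment protocol describes lentiviral hairpins. One array, replicate 2 of sh_84, is named for that hairpin in its title and for another hairpin in its RNAi field; it was grouped by title. The labels do not state that replicate arrays came from separate cultures or infections. The p-values for single hairpins below therefore measure the spread between arrays, which may be technical. Those for targets also take in the spread between hairpins and rest on 2 hairpins a target.

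H2A.Z replaces histone H2A in part of the nucleosomes, often beside the start sites of genes. MITF is regarded as the master regulator of melanocytes and belongs, with TFE3, TFEB and TFEC, to the MiT family of basic helix-loop-helix proteins. PAX3 and SOX10 act together on the MITF promoter in neural crest cells, and MITF in turn binds E-box sequences, among them the longer M-box, in front of pigment genes such as TYR and TYRP1. Melanomas can lose the pigment programme while keeping neural crest factors, and they then often carry genes such as AXL and EGFR.

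The promoters below are shown because they hold, or lack, the known sequence elements that link these regulators to their targets. Each is the 250 bases before a start site on the gene's own strand, from RefSeq on GRCh38.p14. Capitals mark matches, on either strand, to the M-box core TCATGTG, to the E-box letters CATGTG or CACGTG, or to the cyclic AMP response element TGACGTCA. The E-box CATGTG lies within the M-box core, so every M-box match is also an E-box match.
TYR promoter, chr11:89177625-89177874, plus strand: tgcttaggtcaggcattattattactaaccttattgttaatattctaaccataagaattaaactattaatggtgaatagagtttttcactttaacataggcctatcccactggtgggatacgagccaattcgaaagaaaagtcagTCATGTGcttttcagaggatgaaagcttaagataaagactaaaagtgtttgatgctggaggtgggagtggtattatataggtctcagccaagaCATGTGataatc
TYRP1 promoter, chr9:12693135-12693384, plus strand: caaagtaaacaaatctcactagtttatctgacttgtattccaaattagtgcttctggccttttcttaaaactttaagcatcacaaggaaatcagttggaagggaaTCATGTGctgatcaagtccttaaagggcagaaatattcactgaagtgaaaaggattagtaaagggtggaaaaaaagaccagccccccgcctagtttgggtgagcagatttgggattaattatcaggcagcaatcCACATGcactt
MITF promoter at chr3:69936342-69936591, plus strand: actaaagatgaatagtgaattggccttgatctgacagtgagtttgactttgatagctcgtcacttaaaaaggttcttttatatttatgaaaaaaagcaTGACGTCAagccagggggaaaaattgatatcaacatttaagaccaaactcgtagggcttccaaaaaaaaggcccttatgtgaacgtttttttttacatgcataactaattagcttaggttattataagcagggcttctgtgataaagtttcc
PAX3 promoter, chr2:222298999-222299248, minus strand: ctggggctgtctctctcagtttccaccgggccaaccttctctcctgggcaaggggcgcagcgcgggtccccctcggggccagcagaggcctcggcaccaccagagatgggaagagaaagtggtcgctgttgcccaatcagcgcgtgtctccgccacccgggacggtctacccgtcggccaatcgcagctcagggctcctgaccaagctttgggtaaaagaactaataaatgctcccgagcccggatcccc
In TYR the M-box core lies 105 to 99 bases before the start, and another CATGTG lies 12 to 7 bases before it. In TYRP1 the M-box core lies 145 to 139 bases before the start, and a CATGTG on the opposite strand lies 11 to 6 bases before it. MITF has several starts in the table, and the window shown, the most downstream, holds TGACGTCA 152 to 145 bases before its start. The PAX3 window holds none of these letters. Among 35116 windows of the same length, 2.52% held the M-box core, 9.42% CATGTG, 6.35% CACGTG and 1.65% TGACGTCA. These matches describe letters only, and no binding was measured. Windows were found for 7 of the 10 genes, and those shown are a selection. The MLANA window and the other MITF windows held none of these letters. The DCT window at chr13:94479683-94479932 held the M-box core, and the EDNRB window at chr13:77919683-77919932 held CATGTG. Another window of each held none. SOX10, SOX9 and PMEL are named only.

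The targeted genes were read first, on the deposited log2 scale. H2AZ2 read 9.94 and 9.83 with sh_37 and 10.43 and 10.35 with sh_38, against 10.94, 10.99, 11.03 and 11.05 in the control arrays. It was therefore at 46.1% of control with sh_37 and at 65.4% with sh_38. H2AZ1 read 9.79 and 9.94 with sh_83, or 19.3% of control, and 12.10 and 12.15 in the arrays labelled sh_84, against 12.30, 12.17, 12.12 and 12.38 in the controls. The arrays labelled sh_84 thus show no loss of their target that passed the test (limma adjusted p = 0.859, log2 difference -0.12, 95% interval -0.33 to 0.09), and their H2AZ1 mean stayed at 92.0% of control. The gene not aimed at was read too. H2AZ1 differed from control by -0.21 with sh_37 (95% interval -0.42 to -0.01, limma adjusted p = 0.19) and by -0.14 with sh_38 (0.396). All 4 H2AZ2 arrays read H2AZ1 below every control array, as held for 7.46% of all genes. H2AZ2 differed by -0.07 with sh_83 and by 0.13 in the arrays labelled sh_84, and neither passed. The deposited files give no depth or background for the arrays. Precision is limited by the 2 arrays a hairpin.

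In the control cells the lineage genes fell into a bright set of regulators and a dim set of pigment genes. SOX10 read 10.60, 10.51, 10.80 and 10.58 in the scrambled and luciferase arrays, a mean of 10.62 ± 0.12 (SD, n = 4), and its probe set was brighter than those of 91.3% of all genes. SOX9 averaged 9.14 ± 0.13, PAX3 8.74 ± 0.18 and MITF 8.29 ± 0.02 (SD, n = 4 each), each brighter than 72.7%, 66.7% and 59.3% of genes in that order. The 341 olfactory receptor genes, which melanocytes are not known to use as a class, served to describe how bright a probe set can be for a gene with little or no transcript. Their control means ran from 2.79 to 7.29 with a median of 5.18, and all 4 transcription factors lay above every one of them.

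The pigment genes read within that olfactory range. PMEL, which builds the fibrils of the early melanosome, averaged 5.72 ± 0.07, and 86 of the 341 olfactory receptors were brighter. MLANA, the melanosome protein known as Melan-A, averaged 5.09 ± 0.03, and 184 were brighter. TYR, the tyrosinase that starts melanin synthesis, averaged 4.84 ± 0.05, and 221 were brighter. In these arrays the probe sets of the pigment genes were thus no brighter than many probe sets of genes the line is not known to use. TYRP1, the tyrosinase-related enzyme, averaged 4.76 ± 0.15, with 230 brighter (SD, n = 4 for each). EDNRB, the receptor through which endothelins act on melanoblasts, averaged 5.76 ± 0.13 (SD, n = 4), with 82 olfactory receptors brighter. Brightness depends on the probe sequences as well as on the transcript, so these positions do not rank one gene against another, and transcripts below this range are not excluded. TYR has another, dimmer probe set, which read 3.76 to 4.22 over the 12 arrays.

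**Figure D1:**
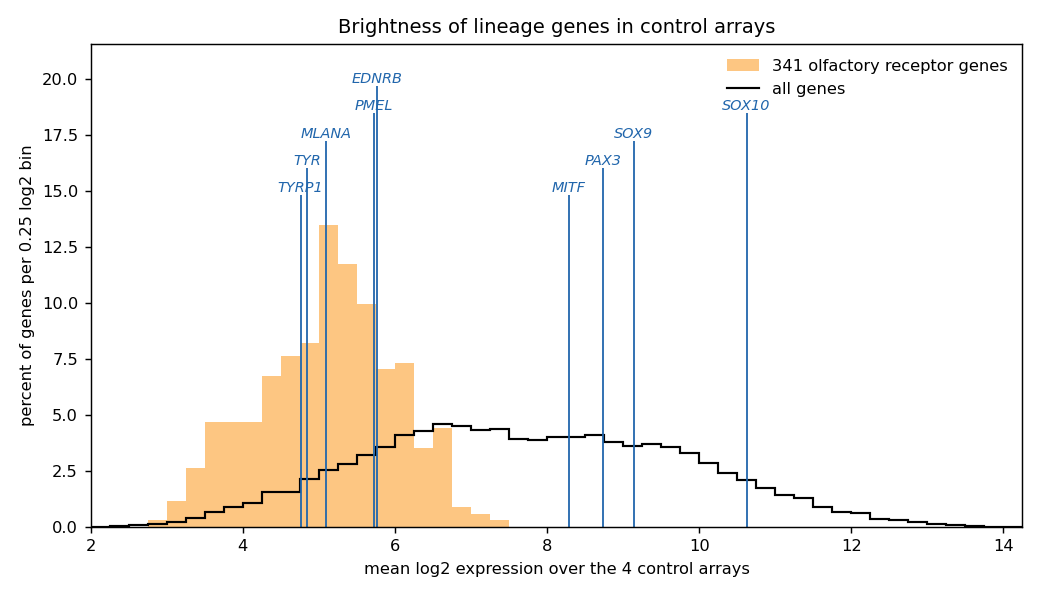
Distribution of the mean log2 expression in the 4 control arrays (horizontal axis) (vertical axis, percent of genes per bin) over all genes and over the 341 olfactory receptor genes, with a line for each of the 9 measured lineage genes. MITF, SOX10, SOX9 and PAX3 lie above the brightest olfactory receptor at 7.29, while PMEL, MLANA, TYR, TYRP1 and EDNRB lie within the olfactory range.

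PAX3, a paired-box factor that acts upstream of MITF in the neural crest, fell with both H2AZ2 hairpins. It read 8.41 and 8.26 with sh_37 and 8.26 and 8.07 with sh_38, against 8.83 and 8.49 with the scrambled and 8.72 and 8.92 with the luciferase hairpin. All 4 H2AZ2 arrays lay below all 4 control arrays. The log2 difference was -0.40 with sh_37 (95% interval -0.65 to -0.16, limma adjusted p = 0.0358) and -0.57 with sh_38 (-0.82 to -0.33, limma adjusted p = 0.0148). PAX3 was thus at 75.7% of control with sh_37 and at 67.2% with sh_38, while H2AZ2 itself was lower with sh_37 than with sh_38 (log2 difference -0.50, limma adjusted p = 0.00763). The difference between both hairpins was 0.17 (95% interval -0.11 to 0.45, limma adjusted p = 0.565). In a bulk sample, fewer cells that express a gene and less RNA per cell cannot be told apart.

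Over both H2AZ2 hairpins, PAX3 was at 71.3% of control (log2 difference -0.49 ± 0.11 SE, limma adjusted p = 0.0265). It was the only one of the 9 measured genes that passed in that comparison, in which 3.31% of all genes were called, 0.863% higher and 2.44% lower. Over all genes, 7.46% had their H2AZ2 arrays wholly below the controls and 4.14% wholly above. The fall was not steady under every choice of arrays. Without replicate 2 of sh_38 the sh_38 call was lost (-0.48, limma adjusted p = 0.199), as it was without replicate 2 of luciferase (-0.52, 0.0527) and against the scrambled hairpin alone (-0.50, 0.0772). The sh_37 call was lost in 9 of 20 alternatives, with differences of -0.48 to -0.32 and limma adjusted p of 0.0505 to 0.304. These were the fits without replicate 1 of scrambled, either sh_37 array, any sh_83 or sh_84 array or replicate 2 of luciferase, and the fit against scrambled alone. The call for H2AZ2 was lost in 8 of 23 alternatives (limma adjusted p 0.052 to 0.200), namely without replicate 1 of scrambled, replicate 2 of sh_37 or sh_38, either luciferase array, or the whole scrambled, sh_38 or luciferase hairpin. Its direction was kept in all of them.

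PAX3 with the H2AZ1 hairpins read 8.55 and 8.60 for sh_83 and 8.73 and 8.62 for sh_84, inside the control range of 8.49 to 8.92. The log2 difference was -0.17 with sh_83 (95% interval -0.41 to 0.08) and -0.07 with sh_84 (-0.31 to 0.18). Set directly against each other, H2AZ2 and H2AZ1 hairpins differed by -0.37 (95% interval -0.60 to -0.14, limma adjusted p = 0.0668), which did not pass the threshold of 0.05. That difference passed without the hairpin block (0.0353), after another quantile normalization (0.0289) and without replicate 2 of scrambled (0.0332). The H2AZ1 side includes the arrays labelled sh_84, in which H2AZ1 stayed at 92.0% of control.

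**Figure D2:**
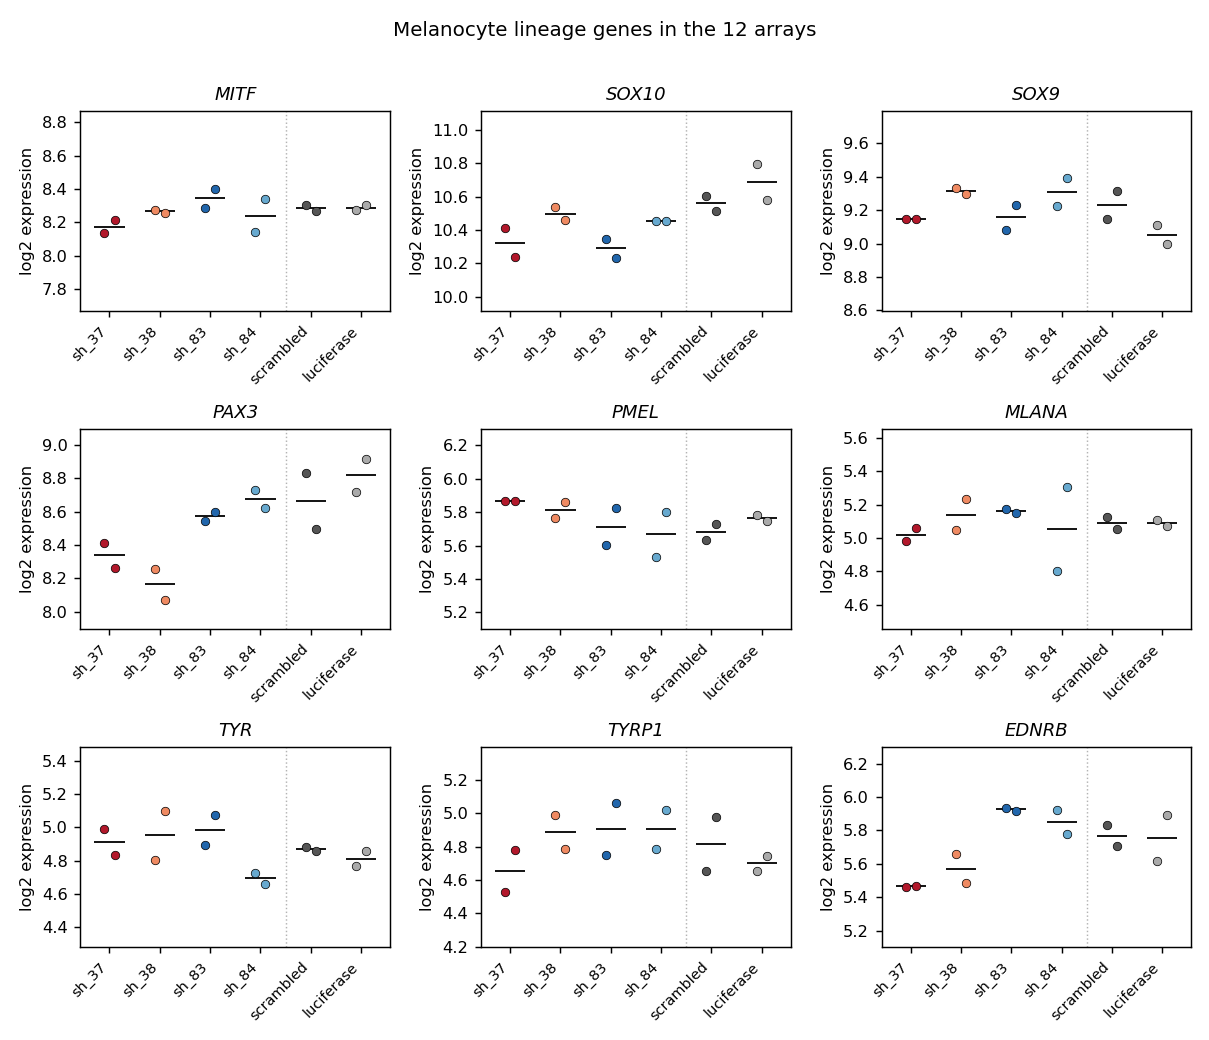
Log2 expression (vertical axes) of the 9 measured lineage genes in each of the 12 arrays, grouped by hairpin, with the H2AZ2 and H2AZ1 hairpins left of the controls; points are arrays and bars are the means of 2 arrays. The 4 H2AZ2 points of PAX3 lie below all 4 control points, and no hairpin group of a pigment gene passed the test against the controls.

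SOX10, the neural crest factor that activates MITF and pigment genes together with it, was lower with sh_37. It read 10.41 and 10.24 with sh_37, 10.54 and 10.46 with sh_38, 10.35 and 10.23 with sh_83 and 10.45 and 10.45 with sh_84, against 10.60 and 10.51 with scrambled and 10.80 and 10.58 with luciferase. Each of the 9 measured genes had arrays outside its control range, such as SOX9 (0 below, 2 above) and MLANA (3 below, 4 above). For SOX10, 7 of the 8 arrays with a hairpin against H2A.Z lay below the lowest control array. How often this holds over all genes was not counted. With sh_37 the log2 difference was -0.30 (95% interval -0.50 to -0.10), at the threshold (limma adjusted p = 0.04997). SOX10 and PAX3 were the 2 of 9 measured genes called with sh_37, both lower, where 12.9% of all genes were called, 5.72% higher and 7.19% lower. For sh_38 the 1 gene called was PAX3, where 4.6% of all genes were called, 1.28% higher and 3.33% lower.

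That SOX10 call was kept in only 4 of 20 alternatives. In the other 16 the difference ran from -0.39 to -0.21 and the limma adjusted p from 0.0501 to 0.424, and leaving out any array but replicate 2 of luciferase ended it. With sh_83 SOX10 was as far below the controls (-0.33, 95% interval -0.53 to -0.14), yet this did not pass (limma adjusted p = 0.16). The difference passed in a fit with a trended, robust variance (limma adjusted p = 0.0445). In the arrays labelled sh_84 it differed by -0.17 (-0.37 to 0.02), and with sh_38 by -0.13 (-0.32 to 0.07). All 4 H2AZ1 arrays lay below all 4 control arrays, which held for 2.58% of all genes, beside 0.755% with H2AZ1 arrays wholly above. The log2 difference of the H2AZ1 hairpins together was -0.25 (-0.46 to -0.05), and no gene of the series, H2AZ1 included, passed that comparison with limma. Set against the H2AZ1 hairpins, the H2AZ2 hairpins gave a SOX10 difference of 0.04 (-0.16 to 0.24).

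MITF, the lineage's central regulator, varied little between the arrays. It read 8.14 and 8.21 with sh_37, 8.27 and 8.26 with sh_38, 8.29 and 8.40 with sh_83 and 8.14 and 8.34 with sh_84, against 8.30, 8.27, 8.27 and 8.30 in the controls. Its 12 values spanned 0.26 log2 units, the narrowest span among the 9 genes. The log2 difference with sh_37 was -0.11, and its 95% interval of -0.29 to 0.06 leaves room for a fall to about that lower bound. With sh_38 the difference was -0.02 (-0.20 to 0.16), with sh_83 0.06 (-0.12 to 0.23) and with sh_84 -0.05 (-0.23 to 0.13). None passed the test, also not for both H2AZ2 hairpins together (-0.07, -0.23 to 0.10, limma adjusted p = 0.683). The probe set is one per gene in this table and does not separate the MITF starts. In the MiT family as a whole, 0 of 4 genes were called for any hairpin, where 12.9% (sh_37), 4.6% (sh_38), 0.641% (sh_83) and 0.353% (sh_84) of all genes were. TFE3, TFEB and TFEC, relatives of MITF that also act on lysosomal genes, differed from control by -0.06, 0.11 and 0.21 with sh_37, and both TFEB and TFEC lay in the olfactory brightness range in the controls.

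SOX9, a factor of early neural crest that is often high in dedifferentiated melanoma, read 9.15 and 9.14 with sh_37, 9.34 and 9.29 with sh_38, 9.08 and 9.23 with sh_83 and 9.22 and 9.39 with sh_84. The control arrays read 9.14, 9.32, 9.11 and 8.99. All hairpin groups overlapped with the controls, and 2 arrays, 1 of sh_38 and 1 of sh_84, exceeded the highest control. The largest log2 differences were 0.17 with sh_38 (95% interval -0.02 to 0.37) and 0.17 with sh_84 (-0.03 to 0.36). They were about as large as that between the control hairpins, where scrambled exceeded luciferase by 0.18.

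The arrays labelled sh_84, in which H2AZ1 stayed at 92.0% of control, count among the H2AZ1 hairpins here. EDNRB differed between the hairpins aimed at the 2 targets. It read 5.46 and 5.47 with sh_37 and 5.66 and 5.49 with sh_38, and 5.94 and 5.92 with sh_83 and 5.92 and 5.78 with sh_84, against 5.83, 5.70, 5.61 and 5.89 in the controls. The H2AZ2 and H2AZ1 arrays did not overlap, while the control range overlapped with both. The share of all genes with such a separation of the targets was not counted. H2AZ2 against H2AZ1 hairpins gave a log2 difference of -0.37 (95% interval -0.56 to -0.18, limma adjusted p = 0.0328), the 1 of 9 genes called there, where 4.35% of all genes were called, 2.08% higher and 2.28% lower. Against the controls EDNRB did not pass with sh_37 (-0.30, -0.51 to -0.08, limma adjusted p = 0.0741), sh_38 (-0.19, -0.40 to 0.02), sh_83 (0.17, -0.05 to 0.38) or sh_84 (0.09, -0.12 to 0.30).

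The EDNRB difference between targets was kept in 9 of 22 alternatives. It was lost without replicate 1 of scrambled, either sh_37 array, replicate 2 of sh_38, or any sh_83 or sh_84 array, and without the whole sh_37, sh_83 or sh_84 hairpin. In the lost fits, which included another quantile normalization and the replicate block, it ran from -0.41 to -0.32 with limma adjusted p of 0.0505 to 0.146. Without replicate 1 of luciferase the sh_37 difference from control passed (-0.37, limma adjusted p = 0.0276). The whole span of EDNRB over the 12 arrays was 0.47 log2 units, all of it in the olfactory brightness range.

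**Figure D3:**
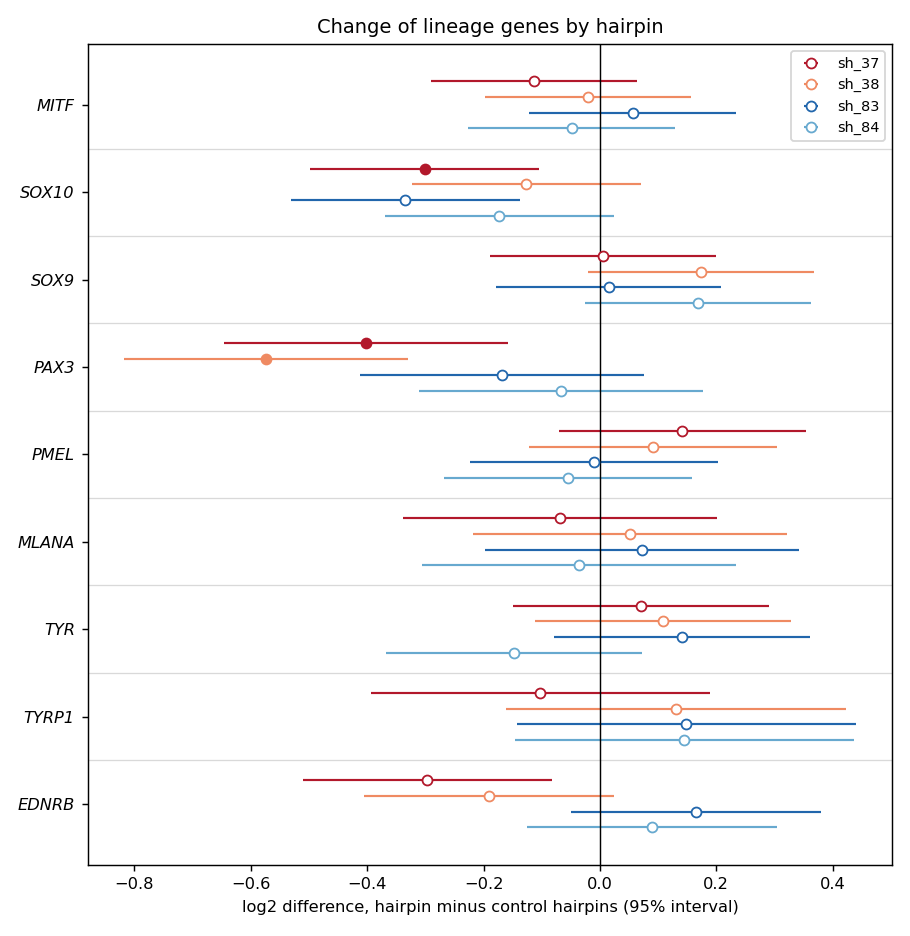
Log2 difference of each hairpin from the control hairpins (horizontal axis) with its 95% interval for the 9 measured lineage genes; filled points have a limma adjusted p under 0.05. PAX3 with sh_37 and sh_38 and SOX10 with sh_37 are filled, and the intervals of the pigment genes all cover 0.

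The pigment genes gave no difference that passed the test. PMEL read 5.86 and 5.86 with sh_37 and 5.77 and 5.86 with sh_38, 5.60 and 5.82 with sh_83 and 5.53 and 5.80 with sh_84, against 5.63, 5.73, 5.78 and 5.75 in the controls. TYR, whose promoter carries the M-box shown above, read 4.99 and 4.84 with sh_37, 4.80 and 5.10 with sh_38, 4.89 and 5.08 with sh_83 and 4.73 and 4.66 with sh_84, against 4.88, 4.86, 4.77 and 4.86 in the controls. PMEL lay above all controls in both sh_37 arrays, TYR and MLANA lay above all controls in both sh_83 arrays, and TYR lay below all controls in both sh_84 arrays. None of these differences passed (limma adjusted p = 0.441 for PMEL with sh_37, 0.677 for TYR and 0.856 for MLANA with sh_83, and 0.813 for TYR with sh_84). The share of all genes with both arrays of a hairpin outside the controls was not counted, so these positions carry no weight alone. TYRP1, also with an M-box, read 4.53 to 5.06 and MLANA 4.80 to 5.30 over the 8 arrays with a hairpin against H2A.Z, against 4.65 to 4.98 and 5.05 to 5.12 in the controls. Over these 4 genes and 4 hairpins the log2 differences from control ran from -0.15 to 0.15, and the 95% intervals reached no further than -0.39 and 0.44. None of the 16 differences passed, and 0 had an unadjusted p under 0.05. For probe sets this dim a larger change in the transcript could go unseen.

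Across the remaining comparisons few or none of the 9 genes passed. With sh_83 0 of 9 were called, where 0.641% of all genes were, 0.152% higher and 0.489% lower, and 1, SOX10, had an unadjusted p under 0.05. In the arrays labelled sh_84 0 of 9 were called, where 0.353% of all genes were, 0.0109% higher and 0.342% lower, and 0 had an unadjusted p under 0.05. For both H2AZ1 hairpins together 0 of 9 and 0% of all genes were called with limma, with 1 of the 9 and 636 of all genes at an unadjusted p under 0.05. That group joins sh_83 with the arrays labelled sh_84, which showed no loss of H2AZ1 that passed. The H2AZ1 gene itself did not pass there (log2 difference -1.25), so the pooled fit says little about loss of H2AZ1. No lineage gene passed between the hairpins of one target. For sh_37 against sh_38, 0 of 9 were called where 6.27% of all genes were (4.07% higher, 2.2% lower), with 0 at an unadjusted p under 0.05. For sh_83 against sh_84, 0 of 9 were called where 1.19% of all genes were (0.717% higher, 0.472% lower), with 1, TYR, at an unadjusted p under 0.05. The control hairpins gave no call either, with 0 of 9 and 0% of all genes called with limma for scrambled against luciferase, and 0 of the 9 and 1384 of all genes at an unadjusted p under 0.05. All comparisons with controls share the same 4 control arrays.

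Other genes of the lineage were read from lists of neural crest and melanocyte regulators, melanosome genes and signalling genes. Of 21 measured regulators, PAX3 and SOX10 included, 4 rose and 3 fell with sh_37, 2 fell with sh_38, 1 fell with sh_83 and 0 were called in the arrays labelled sh_84. Over all genes 5.72% rose and 7.19% fell with sh_37, 3.33% fell with sh_38, 0.489% fell with sh_83 and 0.353% were called in the arrays labelled sh_84. The list medians with sh_37, sh_38, sh_83 and sh_84 were 0.00, 0.04, -0.10 and -0.06 on the log2 scale, beside 0.01, 0.03, 0.01 and 0.01 over all genes. The regulator that fell with sh_83 was HES1 (log2 difference -0.51, limma adjusted p = 0.0398), a call lost in 13 of 20 alternatives. With sh_37 SOX11 rose by 0.52 (limma adjusted p = 0.00113, called in all 20 alternatives). ZEB2 rose by 0.44 with sh_37 (limma adjusted p = 0.00827) and LEF1 fell by 0.40 (0.0208), calls lost in 3 and 4 of 20 alternatives. SOX5, a factor that modulates SOX10 activity in mouse melanocytes, read 8.58 and 8.50 with sh_37, against 7.79, 7.70, 8.05 and 8.06 in the controls (log2 difference 0.64, limma adjusted p = 0.000502, called in all 20 alternatives). SOX4, a factor of the SoxC group, rose by 0.57 with sh_37 (limma adjusted p = 0.00686), a call lost without replicate 1 of sh_37 (0.109). DLX5, a homeobox factor, fell by 0.54 with sh_38 (limma adjusted p = 0.0311), a call lost without replicate 1 of scrambled, replicate 2 of sh_38, replicate 2 of luciferase or either control hairpin (0.0534 to 0.37).

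Of the 35 measured pigment and melanosome genes, 3 rose and 1 fell with sh_37, 1 fell with sh_38, 1 rose with sh_83 and 0 were called in the arrays labelled sh_84. Over all genes 5.72% rose and 7.19% fell with sh_37, 3.33% fell with sh_38, 0.152% rose with sh_83 and 0.353% were called for sh_84, so the share of the list called with sh_37 is near the 12.9% of all genes. The list medians were 0.00, 0.02, 0.06 and -0.01 on the log2 scale for the 4 hairpins in that order. RAB38, a small GTPase that carries TYR and TYRP1 to the melanosome, read 8.60 and 8.66 with sh_37 and 8.97 and 8.90 with sh_38, against 9.32, 9.30, 9.20 and 9.32 in the controls. As for PAX3, every H2AZ2 array lay below every control array, which held for 7.46% of all genes. RAB38 fell by 0.66 with sh_37 (limma adjusted p = 0.000224, called in all 20 alternatives) and by 0.35 with sh_38 (0.0219). The sh_38 call was lost without replicate 2 of sh_38 or of luciferase and against luciferase alone (limma adjusted p 0.061 to 0.236). RAB32, its close relative with an overlapping role, rose by 0.28 and LYST, a regulator of lysosome-related organelles, by 0.56 with sh_37 (limma adjusted p = 0.0338 and 0.0196). Both calls were lost without either sh_37 array or replicate 1 of luciferase, and that of RAB32 also without any sh_83 or sh_84 array, replicate 1 of scrambled or replicate 2 of luciferase (limma adjusted p up to 0.282).

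GPNMB, a melanosome glycoprotein related to PMEL, showed the largest rise in that list. It read 7.78 and 7.92 with sh_37, 6.75 and 6.61 with sh_38, 7.29 and 7.59 with sh_83 and 5.52 and 6.11 with sh_84, against 6.12, 6.18, 6.42 and 6.52 in the controls. Both arrays of sh_37, sh_38 and sh_83 lay above every control array, and both arrays labelled sh_84 lay below every control. How often both arrays of a hairpin do so over all genes was not counted. The mean of the controls, 6.31, lies within the olfactory brightness range, as do both sh_38 arrays. The rise was 1.54 with sh_37 (limma adjusted p = 9.17e-05) and 1.13 with sh_83 (0.00693), and the sh_83 call was lost without either sh_83 array (limma adjusted p 0.0541 and 0.163). With sh_38 the difference of 0.37 did not pass (limma adjusted p = 0.194), nor did that of -0.50 in the arrays labelled sh_84 (0.262). Hairpins of the same target differed from each other, by 1.17 for sh_37 against sh_38 (limma adjusted p = 0.00231) and by 1.63 for sh_83 against sh_84 (0.00187).

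**Figure D4:**
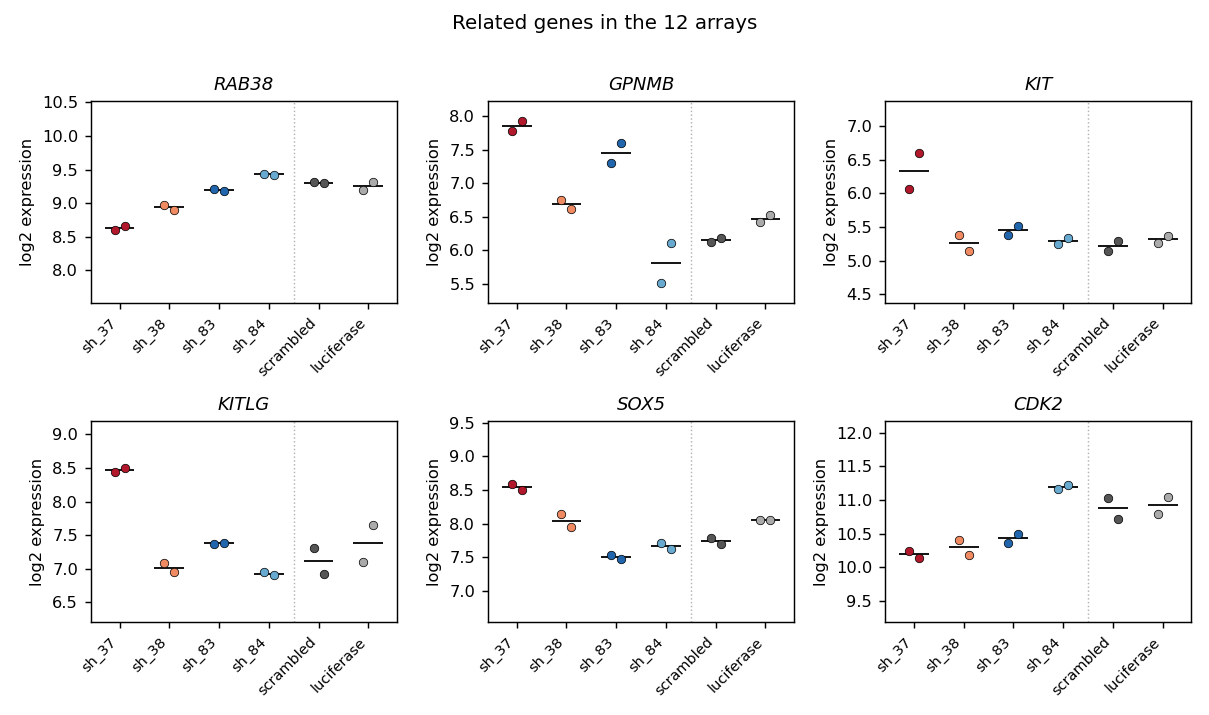
Log2 expression (vertical axes) in each of the 12 arrays for RAB38, GPNMB, KIT, KITLG, SOX5 and CDK2, with the H2AZ2 and H2AZ1 hairpins left of the controls; points are arrays and bars are the means of 2 arrays. RAB38 and CDK2 are lower with both H2AZ2 hairpins, the sh_83 points of CDK2 also lie below all controls, and KIT and KITLG are highest with sh_37.

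Of the 22 measured endothelin, KIT and melanocortin signalling genes, 2 rose and 1 fell with sh_37, 1 rose in the arrays labelled sh_84, and 0, EDNRB included, were called with sh_38 or sh_83. Among all genes sh_37 gave 5.72% higher and 7.19% lower, and the arrays labelled sh_84 gave 0.0109% higher, while 4.6% were called with sh_38 and 0.641% with sh_83. With sh_37 the share of the list called is again near the 12.9% of all genes. The list medians were 0.02, 0.02, 0.01 and 0.01 on the log2 scale for the 4 hairpins. KITLG, the ligand of the KIT receptor, read 8.45 and 8.50 with sh_37, against 7.31, 6.93, 7.11 and 7.66 in the controls, a rise of 1.22 (limma adjusted p = 0.000344). KIT, the receptor itself, read 6.06 and 6.60 with sh_37, against 5.14, 5.29, 5.27 and 5.37 in the controls, a rise of 1.06 (limma adjusted p = 0.000562). The KITLG call was kept in all 20 alternatives and the KIT call in all 19 in which KIT was tested, since the filter on dim genes removes KIT. Both genes lie in the olfactory brightness range in the mean of the controls (7.25 for KITLG and 5.27 for KIT). The hairpins of H2AZ2 differed here: sh_37 exceeded sh_38 by 1.45 for KITLG (limma adjusted p = 0.000603) and 1.07 for KIT (0.00251). EDN1, a ligand of EDNRB, rose by 0.69 in the arrays labelled sh_84 (limma adjusted p = 0.0289), and CREM, a factor that binds cyclic AMP response elements, fell by 0.35 with sh_37 (0.0329) and lies in the olfactory brightness range. Each was called in 11 of 20 alternatives, with limma adjusted p up to 0.423 for EDN1 and 0.257 for CREM. Either array of the hairpin itself or of sh_83 ended the call when left out, as did, for EDN1, either sh_37 array, replicate 2 of scrambled or replicate 1 of luciferase and, for CREM, replicate 1 of scrambled or replicate 2 of luciferase.

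Among the 16 measured melanoma lineage markers, 2 rose and 2 fell with sh_37, 1 fell with sh_38 and 0 were called with the other hairpins. Over all genes 5.72% rose and 7.19% fell with sh_37, 3.33% fell with sh_38, and 0.641% and 0.353% were called for sh_83 and sh_84. The list medians were 0.09, 0.01, -0.04 and 0.04 on the log2 scale for the 4 hairpins. CDK2, whose transcription MITF controls in melanocytes and which drives entry into S phase, read 10.24 and 10.14 with sh_37 and 10.41 and 10.18 with sh_38, 10.36 and 10.50 with sh_83 and 11.17 and 11.22 with sh_84, against 11.03, 10.72, 10.79 and 11.05 in the controls. It fell by 0.71 with sh_37 (limma adjusted p = 0.0022, called in all 20 alternatives) and by 0.60 with sh_38 (0.0137), a call lost without replicate 2 of sh_38 (-0.49, limma adjusted p = 0.196). Both sh_83 arrays also lay below every control, with a difference of -0.47 that did not pass (limma adjusted p = 0.113). The share of all genes with such a separation was not counted. Set against sh_84, sh_83 differed by -0.76 (0.0218), a call lost when any array of these hairpins was left out (0.107 to 0.262). Over both H2AZ2 hairpins the CDK2 difference of -0.65 did not pass (limma adjusted p = 0.0593).

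The other called melanoma lineage markers did not move one way. L1CAM, an adhesion molecule, rose by 0.65 with sh_37 (limma adjusted p = 0.0101), a call lost without replicate 1 of sh_37 and against luciferase alone (0.0786 to 0.143). ABCB5, a membrane transporter in the olfactory brightness range, rose by 0.45 with sh_37 (limma adjusted p = 0.00336), a call lost without replicate 2 of sh_37 (0.0564). Over both H2AZ2 hairpins ABCB5 was the 1 marker called (0.34, limma adjusted p = 0.0349), where 3.31% of all genes were, and that call was lost in 11 of 22 alternatives (limma adjusted p 0.0512 to 0.172), among them those without either sh_37 or luciferase array, replicate 1 of sh_38 or of scrambled, or the whole scrambled, sh_37 or luciferase hairpin. MET, the receptor of hepatocyte growth factor, fell by 0.41 with sh_37 (limma adjusted p = 0.00493), a call lost without either sh_37 array (0.0569 and 0.0603).

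Markers of dedifferentiated melanoma, SOX9 among them, were read next. In the controls 17 of 19 measured genes lay above the brightest olfactory receptor (7.29). The median of all genes, 7.69, also lay above it, so most genes did. With sh_37, 6 of the 19 fell and 0 rose, and 0 were called with the other 3 hairpins. Over all genes 7.19% fell and 5.72% rose with sh_37, and 4.6%, 0.641% and 0.353% were called with sh_38, sh_83 and sh_84. The list medians were -0.05, -0.01, -0.05 and 0.03 on the log2 scale for the 4 hairpins. NT5E, an ectonucleotidase, read 9.66 and 9.72 with sh_37, against 11.26, 11.18, 11.20 and 11.18 in the controls, a fall of 1.52 (limma adjusted p = 1.2e-06, called in all 20 alternatives). The difference of sh_37 from sh_38 was -1.42 for NT5E (limma adjusted p = 1.87e-05). FOSL1, EGFR and ZEB1 fell by 0.46, 0.44 and 0.32 with sh_37. The EGFR call was lost without replicate 2 of sh_37, and ZEB1 was called in 10 of 20 alternatives. AXL and CD44 fell by 0.32 and 0.30 with sh_37, and their calls were lost in 5 and 3 of 20 alternatives.

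**Figure D5:**
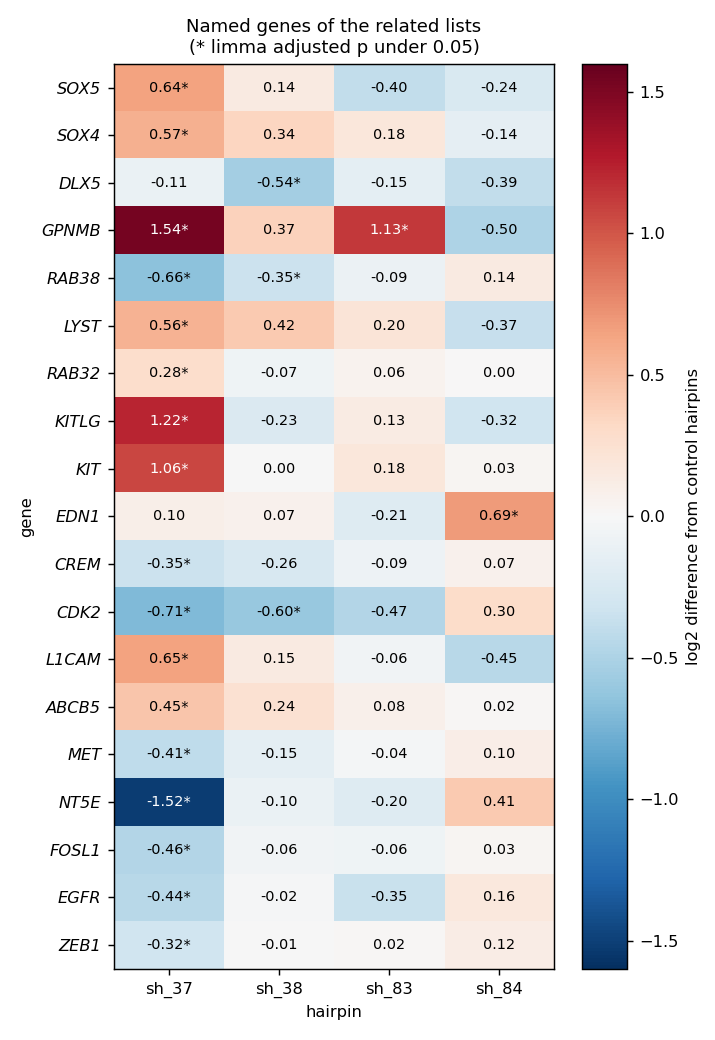
Log2 difference from the control hairpins for the named genes of the related lists (rows) with each hairpin (columns), red for higher and blue for lower; a star marks a limma adjusted p under 0.05. GPNMB with sh_37 (1.54) and sh_83 (1.13) and NT5E with sh_37 (-1.52) have deep colours. HES1, SOX11, ZEB2, LEF1, AXL and CD44 are not drawn.

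Markers of other cell types were read beside these results. Of the measured markers, 7 of 10 for keratinocytes, 10 of 12 for fibroblasts, 9 of 11 for leukocytes, 9 of 10 for endothelium and 4 of 7 for Schwann cells lay at or under the brightest olfactory receptor in the controls. Many other genes do so too, since that receptor (7.29) is close to the median of all genes (7.69). These counts therefore do not show that such cells are absent. Keratinocyte and endothelial markers gave 0 calls with any hairpin; their largest differences were -0.42 for KRT15 with sh_83 and 0.36 for CDH5 with sh_38. With sh_37, where PAX3 and SOX10 were lower, LUM and COL1A1 of the fibroblast list rose by 1.27 and 0.69, GAP43 of the Schwann cell list rose by 1.1, and LYZ and CD68 of the leukocyte list fell by 0.82 and 0.58, where 5.72% of all genes rose and 7.19% fell. The COL1A1 call was lost without replicate 2 of sh_37 (limma adjusted p = 0.064) and that of LYZ, which lies in the olfactory brightness range, without replicate 1 (0.0605). LUM fell by 0.85 in the arrays labelled sh_84 (limma adjusted p = 0.00396), a call lost without replicate 2 of sh_84 (0.122) and against scrambled alone (-0.47, 0.319). With sh_38, where PAX3 was lower, LUM rose by 0.38 (0.0374), a call lost in 8 of 20 alternatives, namely without replicate 1 of scrambled or either array of sh_38, sh_83 or luciferase (0.0636 to 0.204) and against luciferase alone (0.993). The control hairpins themselves differed in LUM, with 8.46 and 8.41 for scrambled and 9.14 and 9.25 for luciferase, so the sh_38 difference was 0.76 against scrambled alone and -0.0020 against luciferase alone. The mean log2 level of the fibroblast list ran from 6.13 to 6.31 in H2AZ2 arrays and from 5.94 to 6.15 in H2AZ1 arrays, against 5.95 to 6.17 in the controls. That of the Schwann cell list ran from 7.27 to 7.57 and from 7.14 to 7.30, against 7.18 to 7.43. The part of such markers in the lineage results was not tested.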

How the data were processed

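The deposited values are log2 expression per probe set, which the authors computed with RMA, per the submitters' processing notes. Which RMA version and which probe set filters were used is not given in the sources. Of 33297 probe sets, 19460 carried 1 symbol in the platform annotation, 1754 several, and 12083 were not listed there; 19429 were matched to current symbols by Entrez ID. The brightest probe set per gene over all arrays was kept (769 genes had several), which gave 18417 genes.

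Single hairpins were tested with limma 3.58.1 in R 4.3.3 (lmFit and eBayes), with 6 hairpin groups and the controls as the mean of both control hairpins. Targets were tested with 3 groups of 4 arrays and the hairpin as a random block (consensus correlation 0.157). P-values were adjusted with Benjamini-Hochberg over all genes, two-sided, at 0.05. The tests were checked on simulated data in which arrays of a hairpin shared no effect of their own. The hairpin block was thus not checked for targets whose hairpins differ. Named genes are the listed lineage genes, H2AZ1 and H2AZ2, the MiT family, and from each list up to 4 called genes with the largest change, or 2 where none was called. HES1, SOX11, ZEB2, LEF1, AXL and CD44 are named besides, as called members of their lists. The lineage genes and lists were chosen with earlier results of these data known. Alternatives covered normalization, centring, a filter on the dimmest 25% of genes, averaging of probe sets, the variance model, blocks, and each array, hairpin or control hairpin left out. No scan dates were analysed here. Figures were drawn with matplotlib 3.10.9.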

Additional observations from a re-analysis of the deposited data

Results flagged for a closer look

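A single array stood apart from the other 3 of its target in 4 of the 33 groups of 4 arrays examined, by the 95% critical value of Dixon's test for the gap to the nearest array over the whole range. Chance alone gives such a gap in about 1 in 20 groups. PMEL in the H2AZ2 arrays had a gap of 0.961 of the range, since replicate 1 of sh_38 read 5.77 and the other arrays 5.86. EDNRB in the H2AZ2 arrays had a gap of 0.876, with replicate 1 of sh_38 at 5.66 and the others between 5.46 and 5.49. In the H2AZ1 arrays the EDNRB gap was 0.869, with replicate 2 of sh_84 at 5.78 and the others between 5.92 and 5.94. The H2AZ1 gene in the H2AZ2 arrays had a gap of 0.874, with replicate 1 of sh_37 at 11.97 and the others between 12.09 and 12.11.

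EDNRB differed when H2AZ2 hairpins were tested directly against H2AZ1 hairpins, the arrays labelled sh_84 included, with a log2 difference of -0.37. The H2AZ2 gene differed in the same test by -0.9, as one of the targeted genes.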

How the results depend on the processing

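Of 1777 differences of lineage genes recomputed under the alternatives, 1723 stayed on the same side of the threshold, 49 calls were lost, 5 were gained and 0 called differences reversed. Most of the 1777 were not called with all arrays, so the total says little about the called ones. PAX3 lost its call in 9 of 20 alternatives with sh_37, 3 of 20 with sh_38 and 8 of 23 for H2AZ2. SOX10 lost it in 16 of 20 with sh_37, and EDNRB in 13 of 22 for H2AZ2 against H2AZ1. The sign changed in 94 differences, none of them called. The count of lineage genes called with sh_37 was 2. It became 1 after another quantile normalization, after centring, with probe sets averaged or against luciferase alone, and 0 against scrambled alone, with a range of 0 to 2 over the arrays left out. For sh_38 the count of 1 became 0 against scrambled alone and ran from 0 to 1 over the arrays left out. For sh_83 the count of 0 became 1 with a trended, robust variance. For H2AZ2 the count of 1 became 0 without the scrambled, the sh_38 or the luciferase hairpin, and ran from 0 to 1 over the arrays left out. For H2AZ2 against H2AZ1 the count of 1 became 0 without the dimmest genes (EDNRB is among those left out), with the replicate block, and without sh_37, sh_83 or sh_84, and 2 without the hairpin block, and ran from 0 to 2 over the arrays left out. Apart from the cases whose construction removes genes or arrays, the cause was not tested.

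The labels do not say that replicate numbers pair the arrays, and the correlation of the differences between replicates 2 and 1 across genes ran from -0.469 to 0.677 over 15 pairs of hairpins, with 9 over 0.1. With the replicate block the counts stayed at 2 for sh_37, 1 for sh_38 and 1 for H2AZ2, and the EDNRB call was lost (limma adjusted p = 0.0543).

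Counts over all genes moved more. With 1 array left out they ran from 922 to 2510 for sh_37 (2377 with all arrays), 148 to 1431 for sh_38 (848), 6 to 111 for sh_83 (118), 2 to 54 for sh_84 (65), 393 to 1238 for sh_37 against sh_38 (1155), 34 to 237 for sh_83 against sh_84 (219), 66 to 847 for H2AZ2 (609) and 272 to 940 for H2AZ2 against H2AZ1 (802). Over the other alternatives they ran from 468 to 1265 for sh_38, 50 to 284 for sh_83, 1 to 176 for sh_84, 208 to 467 for sh_83 against sh_84, 14 to 1681 for H2AZ2, 0 to 17 for H2AZ1 and 93 to 1795 for H2AZ2 against H2AZ1. The arrays have no background values here, so dim genes carry the least certain values.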
